A study of Mus musculus with 60 samples.

Results

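The genes described here are the mouse topoisomerase genes Top1, Top2a, Top2b, Top3a and Top3b and the genes Tdp1 and Tdp2, whose enzymes take topoisomerase remnants off DNA. They were chosen by symbol and are 7 of the 24206 symbols in a first RNA-seq set and 7 of the 24314 in a time course, and all 7 passed the filter on low values in both. The cells were mouse embryonic stem (ES) cells with or without Lnc956, a long noncoding RNA, and the drug was etoposide, a poison of type II topoisomerases. The first set had 4 groups of 2 libraries, namely Lnc956 knockdown cells with 10 uM etoposide, wild-type (WT) cells with 10 uM etoposide, untreated Lnc956 knockdown cells and untreated WT cells. The time course had 14 groups of 2 libraries, namely cells with Lnc956 knockout and P53 knockdown together (combined-loss cells), Lnc956 knockout cells and P53 knockdown cells at 0, 3, 6 and 9 h of etoposide, and WT cells at 6 and 9 h. Its dose was 1 uM by most labels, but 4 libraries are labelled 10 uM, each beside a replicate at 1 uM. They are the second library of combined-loss cells at 9 h and of knockout cells at 3 h, and the first of knockout cells and of P53 knockdown cells at 6 h. ChIP-seq peak lists covered phosphorylated P53 (serine 15) in 4 groups of the first set's genotypes and treatments. They covered KLF4 in 8 groups: WT, Lnc956 knockout, knockout with full-length Lnc956 put back, and knockout with Lnc956 lacking bases 862 to 1253 put back (deletion rescue), each untreated or with 10 uM etoposide for 3 h. All cells were grown in serum replacement with LIF. How knockdown and knockout were made, the number of clones, and the treatment time of the first set and of the P53 ChIP could not be taken from the labels.

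Topoisomerases relieve the twist that builds up in DNA during transcription and replication. They cut the backbone, hold the cut end through a covalent bond to a tyrosine, let the strands turn or pass, and seal the cut. TOP2A and TOP2B are the type II enzymes that etoposide traps on their cut ends. TOP2A is made mainly in dividing cells and separates sister chromosomes before mitosis, while TOP2B is made in dividing and resting cells and works at promoters and in long transcribed genes. TOP1 nicks a single strand ahead of RNA polymerase, TOP3A untangles recombination intermediates with BLM, RMI1 and RMI2, and TOP3B acts on DNA and RNA with TDRD3 and FMRP. TDP2 frees DNA ends from TOP2 remnants, and TDP1 frees them mainly from TOP1 remnants.

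The promoters that could be matched are printed here so that the peaks described later can be placed on them. RefSeq windows of 300 bases around the transcription start, on GRCm38.p6 (the assembly also called mm10), were found for 5 of the 7 genes. Each line runs 5′ to 3′ on the gene's own strand, and capitals mark a CCAAT box, the binding sequence of the factor NF-Y, in either orientation (CCAAT or ATTGG). The windows are chr11:99024140-99024439 on the minus strand for Top2a, and on the plus strand chr14:16364956-16365255 for Top2b, chr2:160645647-160645946 for Top1, chr16:16870486-16870785 for Top3b and chr12:99884268-99884567 for Tdp1.
Top2a: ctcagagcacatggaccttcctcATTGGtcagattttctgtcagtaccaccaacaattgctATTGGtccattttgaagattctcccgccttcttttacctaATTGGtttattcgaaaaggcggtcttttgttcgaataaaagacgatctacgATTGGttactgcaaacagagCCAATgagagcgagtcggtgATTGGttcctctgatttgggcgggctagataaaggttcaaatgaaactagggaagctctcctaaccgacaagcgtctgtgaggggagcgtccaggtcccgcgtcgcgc
Top2b: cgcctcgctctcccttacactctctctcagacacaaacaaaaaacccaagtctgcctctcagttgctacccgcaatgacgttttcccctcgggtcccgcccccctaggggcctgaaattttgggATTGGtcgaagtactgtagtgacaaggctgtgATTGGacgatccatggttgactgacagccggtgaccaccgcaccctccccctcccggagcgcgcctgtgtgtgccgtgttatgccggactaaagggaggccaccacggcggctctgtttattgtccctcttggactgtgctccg
Top1: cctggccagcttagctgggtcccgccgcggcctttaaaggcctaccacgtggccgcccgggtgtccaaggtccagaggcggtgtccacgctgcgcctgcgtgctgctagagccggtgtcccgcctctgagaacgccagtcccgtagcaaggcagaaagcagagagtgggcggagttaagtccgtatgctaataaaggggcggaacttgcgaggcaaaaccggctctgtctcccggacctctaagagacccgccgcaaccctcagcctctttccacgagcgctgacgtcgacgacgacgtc
Top3b: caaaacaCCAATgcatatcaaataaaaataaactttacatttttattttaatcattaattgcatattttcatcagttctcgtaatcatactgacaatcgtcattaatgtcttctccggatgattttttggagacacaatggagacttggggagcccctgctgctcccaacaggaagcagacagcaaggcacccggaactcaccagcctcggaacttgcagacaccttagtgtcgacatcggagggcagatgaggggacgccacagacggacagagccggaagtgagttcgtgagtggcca
Tdp1: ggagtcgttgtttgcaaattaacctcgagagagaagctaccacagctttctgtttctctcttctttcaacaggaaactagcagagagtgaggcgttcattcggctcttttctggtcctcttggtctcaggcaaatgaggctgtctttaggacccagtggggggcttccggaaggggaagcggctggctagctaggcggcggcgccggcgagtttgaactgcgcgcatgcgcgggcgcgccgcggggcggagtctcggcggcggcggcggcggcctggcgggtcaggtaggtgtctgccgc
The Top2a window held 6 CCAAT boxes, a number that 26 of the 32851 promoters of the same length reached (0.0791%). Top2b held 2, and 11.7% of promoters held at least 2. Top3b held 1, which 37.4% of promoters reached, and Top1 and Tdp1 held none. The search for CCAAT was chosen after the sequences had been read. GC content was 64% for Top1, 62% for Tdp1, 58.3% for Top2b, 47.7% for Top2a and 45.7% for Top3b. The KLF4 motif GGGNGTG was searched on both strands and stood in none of the 5 windows, against 29.2% of all promoters, and the P53 response element stood in none of the 5, against 0.0731% of all promoters.

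The depth of the libraries is unknown because the deposited tables give FPKM, a level per transcript length and per library size, without counts. Replicates of a group correlated across genes with r between 0.981 and 0.996, and the labels do not say that they came from separate cultures, so p-values measure the spread between these libraries only. The 8 ES cell markers summed to between 3240 and 7762 FPKM over the 36 libraries, with none of them listed at 0 in both libraries of a group. Trp53 stood at 52.5 to 66.2 FPKM in combined-loss cells and at 61.8 to 112 FPKM in P53 knockdown cells, against 183 to 234 FPKM in WT cells of the time course. Lnc956 itself was not analysed here. Some groups stood apart by Y-linked genes and by markers of fibroblasts and feeder cells. The 4 Y-linked genes summed to 36.7 to 44.8 FPKM in the treated libraries of the first set and to 3.79 to 4.36 FPKM in the untreated ones, and 15 fibroblast and feeder markers summed to 666 to 719.6 FPKM in the treated and 1313 to 1459 FPKM in the untreated libraries. In P53 knockdown cells the Y-linked sum was 52.0 to 54.9 FPKM at 0 and 3 h and 7.07 to 8.57 FPKM at 6 and 9 h. In Lnc956 knockout cells it was 0.0563 to 0.408 FPKM at 0 and 3 h and 2.17 to 3.41 FPKM at 6 and 9 h, while all 4 genes were listed at 0 in WT cells of the time course. Treatment or time and whatever these values mark cannot be told apart in those comparisons.

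Etoposide-treated WT cells had less RNA of both etoposide targets, of Top1 and of Tdp2, and more of Top3a, Top3b and Tdp1, than untreated WT cells. All 7 genes passed the threshold (adjusted p below 0.05, limma, Benjamini-Hochberg over all 12733 genes tested), 3 higher and 4 lower, in a comparison where 76.9% of all genes tested passed. The median log2 difference of the 7 was -0.39, beside 0.01 over all genes. Folds were fitted on log2(FPKM + 1), and in bulk RNA fewer cells of a type and less RNA per cell cannot be told apart.

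Top2a, the target tied to cell division, had 89.4 and 95.05 FPKM in treated WT cells, against 139.8 and 135 FPKM in untreated WT cells. Both treated libraries lay below both untreated ones, and the log2 difference was -0.57 (95% interval -0.68 to -0.46, limma adjusted p = 6.64e-06). Top2b, the other target, had 14.5 and 14.2 FPKM in treated WT cells, against 19.3 and 19.9 FPKM in untreated WT cells. Here too the groups did not overlap, with a log2 difference of -0.42 (-0.54 to -0.31, limma adjusted p = 6.04e-05). Tdp2, which releases trapped TOP2, stood at 26.2 and 28.3 FPKM in treated and 35.0 and 37.1 FPKM in untreated WT cells. It was lower in both treated libraries, by a log2 difference of -0.39 (-0.52 to -0.27, limma adjusted p = 0.000156).

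Top1, which etoposide does not target, changed most of the 7. It had 12.8 and 13.2 FPKM in treated WT cells, against 33.6 and 30.7 FPKM in untreated WT cells, a mean that was 2.47-fold lower. No other of the 7 fell as far, and the log2 difference was -1.24 (-1.37 to -1.12, limma adjusted p = 1.42e-07). Tdp1 had 25.4 and 26.4 FPKM in treated WT cells, against 21.5 and 23.3 FPKM in untreated WT cells, so the groups were close but did not overlap. Its log2 difference of 0.20 (0.07 to 0.33, limma adjusted p = 0.0109) lost its call without the second treated WT library (limma adjusted p = 0.0602) or without the first untreated WT library (limma adjusted p = 0.0898).

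The type IA enzymes were higher under etoposide. Top3b had 41.9 and 42.3 FPKM in treated WT cells, against 25.2 and 25.4 FPKM in untreated WT cells, 1.66-fold higher with a log2 difference of 0.71 (0.61 to 0.81, limma adjusted p = 9.13e-07). Top3a, the least abundant of the 7, had 9.31 and 9.10 FPKM in treated WT cells, against 6.57 and 6.41 FPKM in untreated WT cells. Its log2 difference was 0.45 (0.29 to 0.60, limma adjusted p = 0.000239), and for both genes every treated library lay above every untreated one. By mean FPKM, a scale per length, untreated WT cells held Top2a, Tdp2, Top1, Top3b, Tdp1, Top2b and Top3a from high to low, and no library of one overlapped those of its neighbour in that order.

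**Figure D1:**
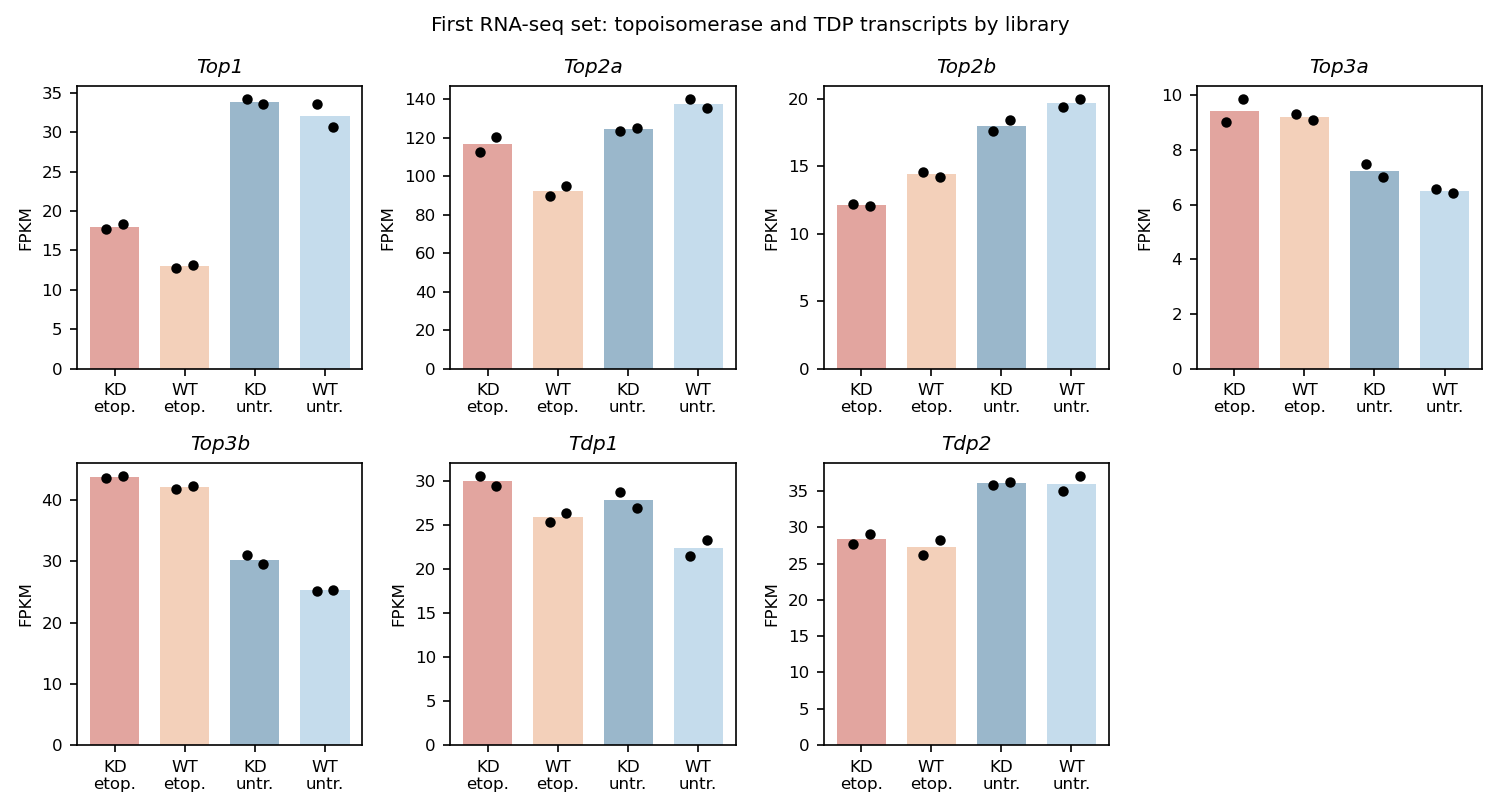
FPKM of the 7 genes in the 4 groups of the first set, with bars at the mean of 2 libraries and points at each library. Top1 in treated WT cells stood at 12.8 and 13.2 FPKM, below every other group, and Top2a in treated Lnc956 knockdown cells (113 and 120.3 FPKM) lay above treated WT cells (89.4 and 95.05 FPKM).

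In Lnc956 knockdown cells the same treatment left Top2a nearly level and lowered Top1 less. Of the 7 genes, 2 were higher and 3 lower, where 68.6% of all genes passed, and the median log2 difference of the 7 was -0.09, beside -0.04 over all genes. Top2a had 113 and 120.3 FPKM in treated and 124 and 125 FPKM in untreated knockdown cells, which did not overlap but did not pass the test (log2 difference -0.09, -0.21 to 0.02, limma adjusted p = 0.12). Tdp1, with 30.6 and 29.4 FPKM in treated and 28.8 and 26.9 FPKM in untreated knockdown cells, did not pass either (0.11, -0.03 to 0.24, limma adjusted p = 0.138). Top1 had 17.7 and 18.4 FPKM in treated knockdown cells, against 34.2 and 33.7 FPKM in untreated knockdown cells. That gap was far wider than the spread of either pair (log2 difference -0.88, limma adjusted p = 1.89e-06).

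The remaining responses of the knockdown cells had the same sign as in WT cells. Top2b had 12.2 and 12.1 FPKM in treated and 17.6 and 18.4 FPKM in untreated knockdown cells, a log2 difference of -0.53 (limma adjusted p = 2.24e-05). Tdp2 fell to 27.7 and 29.1 FPKM in treated knockdown cells, against 35.8 and 36.3 FPKM in untreated ones (log2 difference -0.34, limma adjusted p = 0.000562). Top3a and Top3b rose, with 9.04 and 9.85 FPKM of Top3a in treated and 7.47 and 6.99 FPKM in untreated knockdown cells (log2 difference 0.34, limma adjusted p = 0.0016). Top3b had 43.5 and 44.0 FPKM in treated knockdown cells, against 31.0 and 29.5 FPKM in untreated ones (log2 difference 0.52, limma adjusted p = 1.1e-05). For each of these genes the treated and untreated libraries did not overlap, nor did those of Tdp1 and Top2a, which did not pass. Here and in the other comparisons the share of all genes without overlap was not counted.

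The difference between the responses was tested as an interaction. It passed for 3 of the 7 genes, where 33.1% of all genes passed. The response of Top2a was higher in knockdown than in WT cells by 0.48 on the log2 scale (0.32 to 0.64, limma adjusted p = 0.00122) and that of Top1 by 0.37 (0.19 to 0.55, limma adjusted p = 0.00752). Top3b responded less in knockdown cells, by -0.20 (-0.34 to -0.05, limma adjusted p = 0.0414). That call was lost when any library other than the second untreated knockdown library was left out (limma adjusted p between 0.0749 and 0.133 without 1 of the other 7) and when replicate numbers were used as a block (limma adjusted p = 0.0571). For Tdp1 (-0.10, -0.28 to 0.09), Tdp2 (0.06, -0.12 to 0.23), Top2b (-0.11, -0.27 to 0.06) and Top3a (-0.10, -0.32 to 0.11) the interval of the interaction covered 0.

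Set against WT under etoposide, knockdown cells had more Top1, Top2a and Tdp1 and less Top2b, 4 of 7 genes where 45.6% of all genes passed. The log2 difference was 0.44 for Top1 (0.32 to 0.57, limma adjusted p = 0.000232), 0.33 for Top2a (0.22 to 0.45, limma adjusted p = 0.000637) and -0.23 for Top2b (-0.35 to -0.11, limma adjusted p = 0.00612). Tdp1 differed by 0.21 (limma adjusted p = 0.0182), a call that ended without the first treated knockdown library (limma adjusted p = 0.0901) or the first treated WT library (limma adjusted p = 0.0904). Without etoposide 2 of 7 genes differed, where 23.8% of all genes passed: Tdp1 was higher in knockdown cells by 0.30 (limma adjusted p = 0.00809) and Top3b by 0.25 (limma adjusted p = 0.00599). Neither call held when the first untreated knockdown library was left out (limma adjusted p = 0.0704 for Tdp1 and 0.0564 for Top3b), and that of Tdp1 also ended without the first untreated WT library (limma adjusted p = 0.063). In knockdown and WT cells the Y-linked sums were 40.5 to 44.8 and 36.7 to 39.1 FPKM with etoposide. Without it they were 3.79 to 4.15 and 4.17 to 4.36 FPKM. The fibroblast and feeder sums, in the same order, were 717 to 719.6 and 666 to 693 FPKM with etoposide. Without it they were 1313 to 1340 and 1417 to 1459 FPKM. In none of these pairs did the ranges overlap, and their part in the differences was not tested.

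The genes around the 7 in the same processes were described from lists. Among 17 genes of G2 and mitosis, the phases in which TOP2A is most abundant, 6 were higher and 9 lower in treated WT cells (median log2 difference -0.20), where 76.9% of all genes passed. In treated knockdown cells, where 68.6% of all genes passed, 14 were higher and 1 lower (median 0.27). Cdc20, an activator of the anaphase-promoting complex, was higher under etoposide in knockdown cells (0.76) and in WT cells (0.60). Plk1, a mitotic kinase, had a log2 difference of 0.25 in knockdown and -0.96 in WT cells. The interaction passed for 14 of the 17, 13 higher in knockdown cells, where 33.1% of all genes passed, with a median of 0.40 beside -0.04 over all genes. Summed over the list the level was 1646 to 1718 FPKM in treated knockdown cells, 1375 to 1422 FPKM in treated WT cells, 1250 to 1254 FPKM in untreated knockdown cells and 1211 to 1231 FPKM in untreated WT cells. Its part in the Top2a values was not tested. Of 8 condensin genes, whose products compact chromosomes together with TOP2A, 1 was higher and 6 lower in treated WT cells (median -0.47), and in knockdown cells 1 was higher and 4 lower (median -0.13).

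Of 3 genes for TOP3A partners 1 was higher and 2 lower in treated knockdown cells, where 68.6% of all genes passed, with the same counts in treated WT cells, where 76.9% did. Blm, the helicase of the TOP3A complex, had a log2 difference of -0.53 in treated knockdown cells and -0.96 in treated WT cells. Rmi1 fell (-0.24) and Rmi2 rose (0.29) in WT cells. Of 2 genes for TOP3B partners, Fmr1, which encodes FMRP, fell in knockdown cells (-0.65) and in WT cells (-0.99). Tdrd3 was at 0.29 in knockdown cells, which passed, and at -0.05 in WT cells, which did not.

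The counts of the following lists stand beside a share of 76.9% of all genes called in WT and 68.6% in knockdown cells. Among 15 genes that help remove trapped topoisomerases, 5 were higher and 8 lower in treated WT cells (median -0.15), and 5 were higher and 4 lower in treated knockdown cells (median 0.00). Xpc, a damage sensor of nucleotide excision repair, rose in WT cells (1.27), as did Sprtn, a protease of DNA-protein crosslinks (0.64), and Usp7, a deubiquitinase, fell (-0.71). Of 6 genes that repair ends after TDP1 has acted, 3 were higher and 1 lower in WT cells (median 0.18), with Lig3, a DNA ligase, at 0.88. Of 8 genes of end joining, 2 were higher and 3 lower in WT cells (median -0.04). Of 6 pumps that export etoposide 4 were tested, and 3 were higher and 1 lower in treated WT cells, the same counts as in treated knockdown cells. The P-glycoprotein gene Abcb1b rose in treated WT cells (1.97) and in treated knockdown cells (0.73), and Abcc1 fell in both (-1.13 in WT and -0.82 in knockdown cells). Of 15 genes of replication and S phase 8 were higher and 1 lower in treated WT cells. The fibroblast and feeder markers that were tested, 14 of 15, all fell in both comparisons, with a median of -1.49 in WT and -1.68 in knockdown cells. Their part in these differences was not tested.

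Gene length went along with the response across all genes. In WT cells the median log2 difference was 0.20 for genes under 10 kb, 0.11 from 10 to 30 kb, -0.06 from 30 to 60 kb and -0.37 from 60 kb up, and in knockdown cells it was 0.11, 0.03, -0.09 and -0.28. Among the 7 genes Top1 spans 76.9 kb, Tdp1 70.7 kb, Top2b 65.6 kb, Top3a 39.2 kb, Top2a 31.3 kb, Top3b 22.3 kb and Tdp2 10.495 kb. Top1 (-1.24) lay below the median of its class in WT cells, and Tdp1, a gene of nearly the same length, lay above it (0.20). Tdp2, the shortest, fell, although genes of 10 to 30 kb had a median above 0. Whether length plays a part in the values of single genes was not tested.

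**Figure D2:**
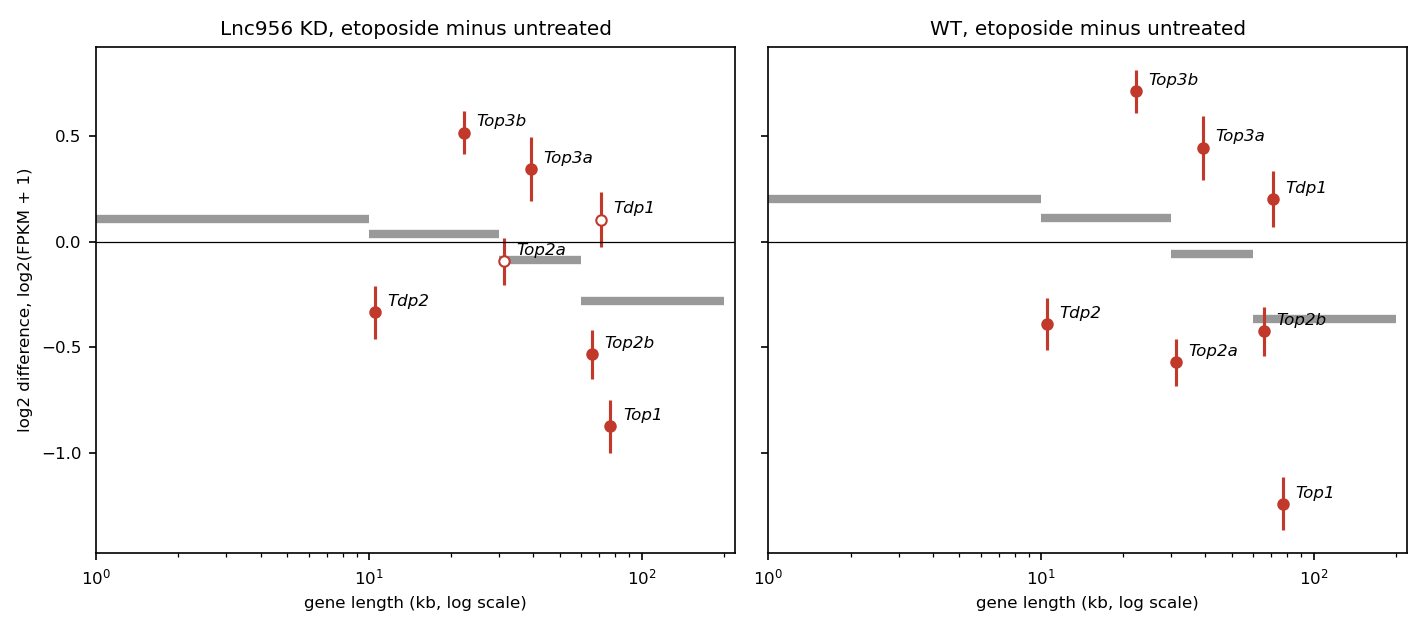
Log2 difference of treated against untreated cells, with its 95% interval, plotted against gene length in kb, for Lnc956 knockdown cells on the left and WT cells on the right. Grey bars give the median of all genes in each length class, filled points passed the threshold and open points did not. In WT cells Top1 (76.9 kb, -1.24) and Tdp1 (70.7 kb, 0.20) lie on opposite sides of the median of long genes.

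In the time course the levels of Top2b, Top1 and Top2a differed most between groups. The highest group mean was 20.4-fold the lowest for Top2b, 8.26-fold for Top1 and 4.54-fold for Top2a, against 2.53-fold for Tdp2, 1.87-fold for Top3a, 1.54-fold for Top3b and 1.47-fold for Tdp1. The lowest mean of Top2b, Top1 and Top2a was in every case that of Lnc956 knockout cells at 0 h. For Top2b the means of knockout cells at 0 h (0.843 FPKM) and 3 h (1.56 FPKM) were the lowest of the 14 and did not overlap the next group, combined-loss cells at 9 h (6.82 FPKM). From there up most neighbours overlapped. For Top1 knockout cells at 0 h (5.77 FPKM) and 3 h (8.07 FPKM) were again lowest and did not overlap P53 knockdown cells at 9 h (14.03 FPKM), while combined-loss cells at 3 h (47.7 FPKM) were highest and did not overlap the group next below. For Top2a the 4 lowest means lay between 42.4 and 56.2 FPKM, in knockout cells at 0, 9 and 3 h and in WT cells at 6 h, and P53 knockdown cells at 0 h were highest (193 FPKM), with overlap between most neighbours.

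**Figure D3:**
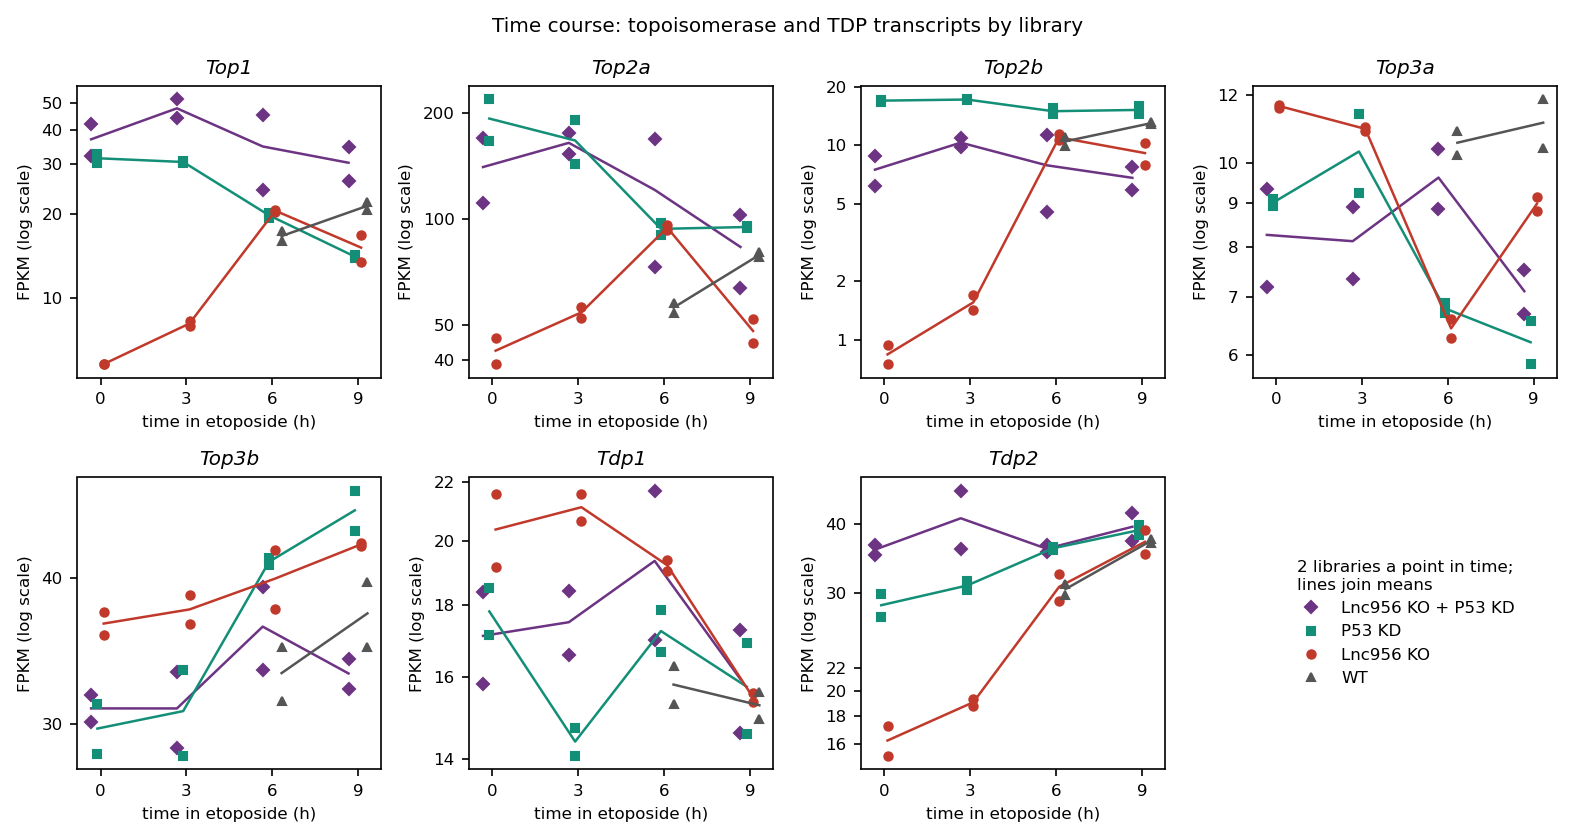
FPKM of the 7 genes, on a log axis, against hours of etoposide in combined-loss, Lnc956 knockout, P53 knockdown and WT cells, with points at each library and lines through the means of 2. Top2b of Lnc956 knockout cells lies at 0.749 and 0.936 FPKM at 0 h and at 11.4 and 10.6 FPKM at 6 h.

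Lnc956 knockout cells at 9 h had more Top2b, Top1 and Tdp2 and less Tdp1 and Top3a than at 0 h, 5 of 7 genes where 63.6% of all genes passed. The median of the 7 was 0.22, beside 0.27 over all genes. Top2b had 0.749 and 0.936 FPKM at 0 h, 1.42 and 1.70 at 3 h, 11.4 and 10.6 at 6 h, and 10.3 and 7.95 at 9 h. The step lay between 3 and 6 h, and the log2 difference at 9 h was 2.45 (1.96 to 2.95, limma adjusted p = 4.51e-08). Top1 had 5.76 and 5.79 FPKM at 0 h, 7.92 and 8.23 at 3 h, 20.3 and 20.7 at 6 h, and 16.8 and 13.4 at 9 h, again with the step between 3 and 6 h (log2 difference at 9 h 1.24, limma adjusted p = 1.53e-05). Tdp2 followed with 15.2 and 17.2 FPKM at 0 h, 18.8 and 19.3 at 3 h, 32.5 and 29.1 at 6 h, and 39.0 and 35.3 at 9 h (log2 difference at 9 h 1.15, limma adjusted p = 1.55e-08).

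Top2a of the knockout cells was high at 6 h only, with 38.8 and 46.0 FPKM at 0 h, 52.4 and 56.5 at 3 h, 92.9 and 96.4 at 6 h, and 52.0 and 44.5 at 9 h, and its 9 h difference did not pass (0.18, -0.40 to 0.76, limma adjusted p = 0.58). Top3a had 11.7 and 11.6 FPKM at 0 h, 11.03 and 10.9 at 3 h, 6.28 and 6.61 at 6 h, and 8.82 and 9.14 at 9 h. It was lowest where Top2a was highest. Its 9 h difference of -0.34 (limma adjusted p = 0.0257) lost its call without any 1 of the 4 libraries compared (limma adjusted p between 0.0623 and 0.104). Tdp1 fell to 15.6 and 15.4 FPKM at 9 h, against 19.2 and 21.6 FPKM at 0 h (-0.37, limma adjusted p = 0.00885), a call that ended without the second library of 0 h (limma adjusted p = 0.092). Top3b, with 42.9 and 42.6 FPKM at 9 h and 37.4 and 35.7 FPKM at 0 h, did not pass (0.22, limma adjusted p = 0.0779).

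The step in these genes fell at the same place as the step in the Y-linked genes of the knockout cells. With the 6 h libraries in place of those of 0 h, a comparison chosen after the values were seen, Top2b was lower at 9 h (-0.25), as was Top1 (-0.42), neither past the threshold, and Tdp2 was at 0.26. Top2a (-0.96, limma adjusted p = 0.0134) and Top3a (0.42, limma adjusted p = 0.0183) then passed. For this swap, here and below, the share of all genes that passed is not given, so it is read gene by gene. At 3 h against 0 h none of the 7 genes passed by limma, where 0.45% of all genes did, and 2 of the 7 were under an unadjusted p of 0.05. In knockout cells all 3 TOP3A partners were higher at 9 h than at 0 h (Blm 1.21, Rmi1 1.38, Rmi2 0.44), as was Fmr1 (1.94), and of the 17 G2 and mitosis genes 4 were higher and 11 lower, beside the 63.6% of all genes that passed. These list values rest on the same 0 h libraries, and the swap to 6 h is not given for them.

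P53 knockdown cells at 9 h had less Top1, Top2a and Top3a and more Top3b and Tdp2 than at 0 h, 5 of 7 genes where 60.2% of all genes passed, with a median of -0.17 beside 0.20 over all genes. Top1 had 32.8 and 30.4 FPKM at 0 h, 30.3 and 30.9 at 3 h, 19.4 and 20.1 at 6 h, and 13.9 and 14.2 at 9 h. Each of the last 2 times lay below the time before it, and the log2 difference at 9 h was -1.12 (-1.52 to -0.71, limma adjusted p = 6.12e-05). Top2a had 167 and 218 FPKM at 0 h, 143 and 191 at 3 h, 90.1 and 97.6 at 6 h, and 94.6 and 95.4 at 9 h. The replicates of the early times lay far apart, and the difference at 9 h of -0.999 (limma adjusted p = 0.00427) was -0.81 without the second library of 0 h, where it no longer passed (limma adjusted p = 0.0532). Top3b had 31.2 and 28.2 FPKM at 0 h, 33.4 and 28.2 at 3 h, 41.0 and 41.6 at 6 h, and 43.9 and 47.5 at 9 h (0.60 at 9 h, limma adjusted p = 7.76e-05).

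Top3a of the P53 knockdown cells had 6.57 and 5.86 FPKM at 9 h, against 9.09 and 8.93 FPKM at 0 h (-0.47, limma adjusted p = 0.0036), and Tdp2 had 39.8 and 38.2 FPKM at 9 h, against 27.1 and 29.95 FPKM at 0 h (0.44, limma adjusted p = 0.00112). The groups did not overlap in either gene. Tdp1 (-0.17, -0.41 to 0.07) and Top2b (-0.15, -0.65 to 0.35) did not pass, and Top2b stayed between 14.5 and 17.3 FPKM in all 8 libraries. The Y-linked sum differed between the same times (7.60 to 8.57 FPKM at 9 h, against 53.8 to 54.1 FPKM at 0 h), and its part was not tested. With 6 h in place of 0 h these calls did not hold, with Top2a at 0.02, Top1 at -0.46, Tdp2 at 0.11, Top3a at -0.11 and Top3b at 0.14. At 3 h none of the 7 genes passed by limma, where 5.18% of all genes did, and 1 of the 7 was under an unadjusted p of 0.05.

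In combined-loss cells none of the 7 genes passed between 0 h and 9 h by limma, where 5.62% of all genes did, and 1 of the 7 was under an unadjusted p of 0.05. Top2a was that gene, with 111 and 169.8 FPKM at 0 h, 176 and 153 at 3 h, 169 and 73.0 at 6 h, and 103 and 63.8 at 9 h (-0.75, -1.33 to -0.17, limma adjusted p = 0.133). Its 2 libraries of 6 h lay further apart than those of any other time. Top1 showed the same spread, with 32.1 and 41.7 FPKM at 0 h, 51.4 and 44.0 at 3 h, 45.3 and 24.3 at 6 h, and 34.8 and 26.1 at 9 h. The 3 h comparison of these cells called no gene at all by limma (0% of 14223 genes, with 454 of all genes and 0 of the 7 under an unadjusted p of 0.05). In WT cells 9 h against 6 h gave none of the 7, where 12.1% of all genes passed, and Tdp2 was the single gene of the 7 under an unadjusted p of 0.05 (37.0 and 37.7 FPKM at 9 h, against 29.8 and 31.2 FPKM at 6 h, limma adjusted p = 0.081).

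The response differences between lines were tested as interactions. Between combined-loss and knockout cells 3 of 7 passed, where 47.4% of all genes did: Top2b (-2.57, -3.27 to -1.87, limma adjusted p = 8.05e-06), Top1 (-1.51, -2.08 to -0.95, limma adjusted p = 0.00019) and Tdp2 (-1.02, -1.32 to -0.71, limma adjusted p = 2.01e-05). All 3 rest on the 0 h libraries of the knockout cells. With 6 h in place of 0 h in both lines the values were 0.17 for Top2b, 0.29 for Top1 and -0.14 for Tdp2, none past the threshold, and Top3a passed instead (-0.81, limma adjusted p = 0.00599). Between combined-loss and P53 knockdown cells 2 of 7 passed, where 34.2% of all genes did, namely Top1 (0.84, 0.28 to 1.41, limma adjusted p = 0.0218) and Top3b (-0.51, -0.82 to -0.19, limma adjusted p = 0.0136). Either call was lost without the first combined-loss library of 0 h or of 9 h. The call of Top1 also ended without the first P53 knockdown library of either time, and that of Top3b without the second (limma adjusted p between 0.0551 and 0.116 for Top1 and between 0.0518 and 0.0566 for Top3b). With 6 h in place of 0 h neither passed, with Top1 at 0.33 and Top3b at -0.27.

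Before treatment combined-loss cells held more Top1, Top2a, Top2b and Tdp2 and less Top3a than Lnc956 knockout cells, 5 of 7 genes where 55.4% of all genes passed. The median of the 7 was 1.10, beside 0.07 over all genes. Top1 had 32.1 and 41.7 FPKM in combined-loss cells, against 5.76 and 5.79 FPKM in knockout cells (log2 difference 2.47, 2.07 to 2.87, limma adjusted p = 3.82e-09). Top2b had 6.16 and 8.86 FPKM in combined-loss cells, against 0.749 and 0.936 FPKM in knockout cells (2.19, limma adjusted p = 2.82e-07). Every library of the combined-loss cells lay above the knockout pair in both genes, and likewise for Top2a (1.68, limma adjusted p = 4.21e-05) and Tdp2 (1.10, limma adjusted p = 3.98e-08). Top3a was lower by -0.46 (limma adjusted p = 0.00507), a call lost without the second combined-loss library (limma adjusted p = 0.117). Of the 8 condensin genes 7 were higher and 0 lower (median 1.17). The Y-linked sum was 4.40 to 4.84 FPKM in combined-loss and 0.14 to 0.282 FPKM in knockout cells at 0 h, and its part in these differences was not tested.

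At 9 h the same lines differed in 3 of 7 genes, where 53% of all genes passed. The fibroblast and feeder markers summed to 1170 to 1240.5 FPKM in combined-loss and 1914 to 2047 FPKM in knockout cells at 9 h, and their part was not tested. Top1 had 34.8 and 26.1 FPKM in combined-loss cells, against 16.8 and 13.4 FPKM in knockout cells (0.96, limma adjusted p = 0.000324), and the groups did not overlap. Top2a was higher by 0.74 (limma adjusted p = 0.0298), a call lost without the first combined-loss library or either knockout library (limma adjusted p between 0.0539 and 0.325), and Top3b was lower by -0.36 (limma adjusted p = 0.00798), lost without the first combined-loss library (limma adjusted p = 0.0596). Top2b, with 7.74 and 5.89 FPKM in combined-loss and 10.3 and 7.95 FPKM in knockout cells, did not pass at 9 h (-0.38, -0.87 to 0.12).

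Set against P53 knockdown cells, combined-loss cells held less Top2b at both times. At 0 h 2 of 7 genes passed, where 44.9% of all genes did. Top2b had 6.16 and 8.86 FPKM in combined-loss cells, against 16.8 and 17.2 FPKM in P53 knockdown cells (-1.10, limma adjusted p = 0.000944). Tdp2 was higher by 0.33 (limma adjusted p = 0.0143), a call lost without the first library of either group (limma adjusted p = 0.0912 for combined-loss and 0.116 for P53 knockdown cells). The Y-linked sum at 0 h was 4.40 to 4.84 FPKM in combined-loss and 53.8 to 54.1 FPKM in P53 knockdown cells, and its part was not tested. At 9 h 3 of 7 passed, where 47.9% of all genes did. Top2b had 7.74 and 5.89 FPKM in combined-loss cells, against 14.5 and 16 FPKM in P53 knockdown cells (-1.06, limma adjusted p = 0.00117), and Top1 had 34.8 and 26.1 FPKM in combined-loss cells, against 13.9 and 14.2 FPKM in P53 knockdown cells (1.05, limma adjusted p = 0.000197). Top3b was lower by -0.45 (limma adjusted p = 0.00179). In none of these 3 genes did the groups overlap, nor did they in Top3a, which did not pass. The fibroblast and feeder sum at 9 h was 1170 to 1240.5 FPKM in combined-loss and 2268 to 2350.3 FPKM in P53 knockdown cells, and its part was not tested.

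WT cells of the time course had labelled libraries at 6 and 9 h only, all at 1 uM. Lnc956 knockout cells differed from WT cells in 3 of 7 genes at 6 h, where 48.3% of all genes passed, and in 2 of 7 at 9 h, where 44.1% did. The first knockout library of 6 h is labelled 10 uM, so that comparison mixes doses. Without the libraries labelled 10 uM its log2 difference was 0.77 for Top2a and 0.18 for Top3b. Top3a was lower at 6 h, with 6.28 and 6.61 FPKM in knockout cells, against 10.2 and 10.9 FPKM in WT cells (-0.63, -0.90 to -0.37, limma adjusted p = 0.00039). Top2a had 92.9 and 96.4 FPKM in knockout cells at 6 h, against 54.3 and 58.1 FPKM in WT cells (0.74, limma adjusted p = 0.0326), and 52.0 and 44.5 FPKM at 9 h, against 80.5 and 77.9 FPKM in WT cells (-0.71, limma adjusted p = 0.0445). The groups did not overlap and stood in opposite order at the 2 times, although each call was lost without any 1 of its 4 libraries (limma adjusted p between 0.0816 and 0.128 at 6 h and between 0.0735 and 0.202 at 9 h). Top1 was lower in knockout cells at 9 h (-0.48, limma adjusted p = 0.0496), lost without the second knockout library or either WT library (limma adjusted p between 0.104 and 0.309). Top3b was higher at 6 h (0.26, limma adjusted p = 0.049), lost without the first knockout library or either WT library (limma adjusted p between 0.0506 and 0.291).

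P53 knockdown cells differed from WT cells in 3 of 7 genes at 6 h, where 53.2% of all genes passed, and in 3 of 7 at 9 h, where 54.5% did. The first P53 knockdown library of 6 h is labelled 10 uM, against 1 uM for WT cells. Without the libraries labelled 10 uM the 6 h log2 difference was 0.79 for Top2a and 0.32 for Top3b. Top3a was lower at both times, with 6.71 and 6.89 FPKM in P53 knockdown cells, against 10.2 and 10.9 FPKM in WT cells at 6 h (-0.57, limma adjusted p = 0.000949), and 6.57 and 5.86 FPKM, against 10.4 and 11.9 FPKM in WT cells at 9 h (-0.75, limma adjusted p = 5.82e-05). Top2a was higher at 6 h (0.73, limma adjusted p = 0.0327, lost without any 1 of the 4 libraries, 0.0755 to 0.129). Top1 was lower at 9 h (-0.57, limma adjusted p = 0.0168, lost without either P53 knockdown library or the second WT library, 0.0568 to 0.0862). Top3b was higher at 6 h (0.31, limma adjusted p = 0.0194, lost without either P53 knockdown library or the second WT library, 0.063 to 0.156) and at 9 h (0.29, limma adjusted p = 0.0278, lost without the second library of either group, 0.163 for P53 knockdown and 0.229 for WT cells). The comparisons of both lines with WT share the WT libraries. The 15 fibroblast and feeder markers summed to 1452 to 2047 FPKM in knockout and 1911 to 2350 FPKM in P53 knockdown cells at 6 and 9 h, against 298 to 356 FPKM in WT cells, where 3 of them were listed at 0 in both libraries, and their part in these differences was not tested.

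The balance of the etoposide targets was followed as the ratio of Top2a to Top2b FPKM, a description with no test. It was 9.27 and 9.96 in treated Lnc956 knockdown cells, 6.15 and 6.69 in treated WT cells, 7.03 and 6.80 in untreated knockdown cells, and 7.23 and 6.79 in untreated WT cells. Only the treated knockdown pair lay above 9 in the first set. In knockout cells the ratio was 51.8 and 49.2 at 0 h, 36.8 and 33.3 at 3 h, 8.15 and 9.08 at 6 h, and 5.04 and 5.59 at 9 h. Combined-loss cells had 18.02 and 19.2 at 0 h, 16.1 and 15.6 at 3 h, 14.97 and 16.1 at 6 h, and 13.3 and 10.8 at 9 h. Their ratio was above that of P53 knockdown cells at every time, which had 9.93 and 12.7 at 0 h, 8.33 and 11.03 at 3 h, 5.79 and 6.75 at 6 h, and 6.54 and 5.96 at 9 h, while WT cells had 5.43 and 5.27 at 6 h and 6.13 and 6.03 at 9 h.

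**Figure D4:**
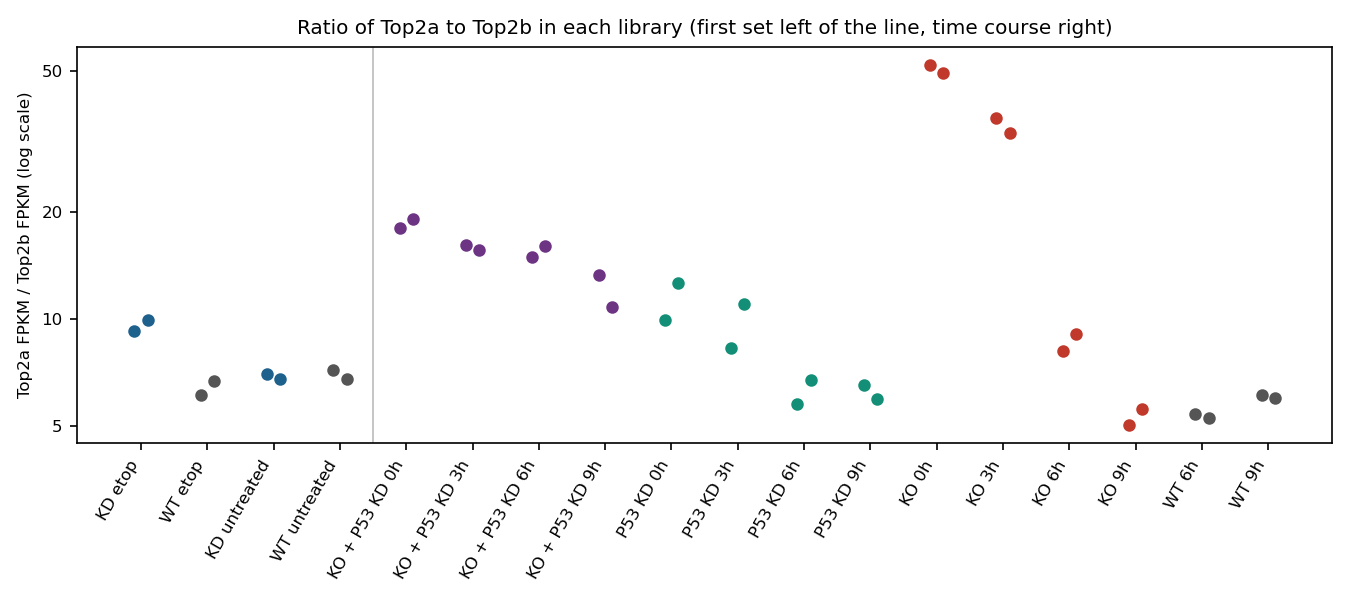
Ratio of Top2a to Top2b FPKM in each library of the first set and of the time course, on a log axis. Lnc956 knockout cells at 0 h (51.8 and 49.2) and 3 h (36.8 and 33.3) lie above every other group.

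The 3 genes whose pattern was most like that of each of the 7 were found by the correlation of group means of log2(FPKM + 1) over 18 groups, each set centred on its own mean, among 12641 genes. The points share libraries, scaling and the step in the knockout cells, so r is a description. Top2b went with Fam199x (r = 0.99), Ccdc66 and Hltf, and Top1 with Suz12 (0.97), Rab5a and Larp4b. Tdp2 went with Spice1 (0.96), Cldnd1 and Atp6v1a, and Top2a with Usp9x (0.95), Myef2 and Slx4ip. Top3a was closest to Gtf3c4 (0.92), Neurl4 and Spag5, Top3b to Hgh1 (0.92), Lrrc14 and Tigd5, and Tdp1 to Hira (0.89), Setd1b and Agtrap. None of the 7 was among the 3 nearest of another, and within the 7 the highest r was that of Top1 with Top2a (0.82) and the lowest that of Top2b with Tdp1 (-0.66).

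P53 peaks were called by the authors in each library, and a site here is a peak in both libraries of a group within 10 kb of the gene. Of the 7 genes Top3b had a P53 site, in treated knockdown cells (where 16.2% of 21887 genes had one) and in treated WT cells (18.6%). None of the 7 had one in untreated knockdown cells (1.32% of genes) or in untreated WT cells (1.85%). A P53 site in treated but not in untreated WT cells was thus held by 1 of the 7 genes, and by 16.9% of all genes. The peaks lay at chr16:16865438-16866791, with summits at -4581 to -4410 bases from the start of Top3b, in the stretch between the genes Igll1 and Vpreb1, and the deposited fold enrichments were 8.21 and 10.2 in treated knockdown and 9.91 and 10.3 in treated WT cells. Vpreb1, a gene of the pre-B cell receptor, lies nearer to these peaks than Top3b, so the peaks cannot be tied to Top3b by position. KLF4 peaks lay over the same stretch in all 16 KLF4 libraries, with folds of 6.99 and 6.87 in treated and 12.3 and 8.48 in untreated WT cells.

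Just inside Top2a, ending short of its start, a P53 peak stood in the second treated knockdown library (fold 4.32) and the second treated WT library (4.83), and within Top3a a peak stood in the same 2 libraries (5.44 in knockdown and 5.47 in WT cells). Neither was called in the first library of its group, so neither counts as a site. The response of Top3b was positive in WT (0.71), knockdown (0.52) and P53 knockdown cells (0.60 at 9 h), and 0.10 in combined-loss cells, which did not pass. In Lnc956 knockout cells the response at 9 h was positive and did not pass either. With 6 h in place of 0 h the value of P53 knockdown cells was 0.14 and no longer passed. The part of P53 in these values was not tested.

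KLF4 sites stood at 3 of the 7 genes in treated WT cells (Top1, Top3a and Top3b), where 25.8% of genes had one, and at 6 of the 7 in untreated WT cells, where 62.6% did. In knockout cells 7 of the 7 had one with etoposide (53.4% of genes) and 6 without (55.7%). Full-length rescue cells had 3 with etoposide (44.2% of genes) and 7 without (58.8%). Deletion rescue cells had 6 with etoposide (55.6% of genes) and 6 without (58.9%). Of the 6 genes with a site in untreated WT cells, 3 had none in treated WT cells, namely Top2b, Tdp1 and Tdp2, against 59% of all such genes. The same 3 had no site in treated full-length rescue cells either and kept one in treated knockout and treated deletion rescue cells, a pattern shown by 10.6% of all genes with a site in untreated WT cells. With 6 genes these shares are coarse. Libraries of treated WT cells held 5691 to 6943 KLF4 peaks in all, against 27294 to 30590 in untreated WT cells, so fewer peaks were called across the genome as well.

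Overlapping peaks of all libraries were joined to a region, so that a peak of the region around a start need not cover the start itself. Where a library had several peaks in a region, the highest fold is given unless stated. Around the start of Top2b no KLF4 peak was called in treated WT cells, against folds of 9.85 and 7.86 in untreated WT cells. Treated full-length rescue cells had a peak there in the second library only (5.52), against 9.03 and 8.16 in untreated ones. The folds were 9.19 and 8.51 in treated and 7.78 and 7.01 in untreated knockout cells, and 6.29 and 7.02 in treated and 12.3 and 12.2 in untreated deletion rescue cells. A peak was thus called in every library of the 2 genotypes that lack full-length Lnc956. The printed Top2b promoter lies wholly within this peak region (chr14:16364402-16366241). The peak region of Tdp1 (chr12:99883142-99885239), which holds the printed Tdp1 promoter, also covers the edge of Efcab11. Its folds were 8.42 and 7.74 in treated knockout cells, from peaks that reach the promoter. In treated deletion rescue cells they were 7.86 and 9.36, from peaks upstream of the promoter, and the peaks over the promoter had 6.94 and 7.65. No peak was called in the region in treated WT cells. Untreated WT cells had folds of 15.2 and 12.6 upstream of the promoter and of 13.3 and 11.6 at peaks reaching it. Treated full-length rescue cells again had a peak in the second library only (5.52), and it lay upstream of the promoter.

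Tdp2 shares its peak region (chr13:24831057-24832296) with Acot13, so that by position the peaks belong to either gene. The folds were 9.95 and 10.1 in treated knockout cells and 7.86 and 7.02 in treated deletion rescue cells. None was called in treated full-length rescue cells or in treated WT cells, against 12.1 and 9.43 in untreated WT cells. Top1 counted as holding a site in treated WT cells only through a peak beside its end at Plcg1, a phospholipase gene, which was called in all 16 libraries (folds of 11.8 and 10.8 in treated and 29.3 and 25.6 in untreated WT cells). Around the start of Top1 itself (chr2:160645494-160646647) the folds were 8.42 and 8.51 in treated knockout cells and 5.50 and 7.80 in treated deletion rescue cells. There, too, no peak was called in treated full-length rescue cells or in treated WT cells, against 6.06 and 6.29 in untreated WT cells. A further region inside Top1 (chr2:160655989-160657214) had a peak in all 12 libraries of knockout and rescue cells and in no WT library. Its folds in treated full-length rescue cells were 4.08 and 4.85.

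Top3a had peaks in all 16 libraries at the edge it shares with Smcr8 and at its neighbour Mief2. At the Smcr8 edge the folds were 10.1 and 9.71 in treated and 10.6 and 12.6 in untreated WT cells, and 5.52 and 5.62 in treated and 15.9 and 13.2 in untreated knockout cells. At Mief2 they were 6.65 and 8.39 in treated and 15.04 and 15.7 in untreated WT cells. In each of these 3 comparisons both treated folds were below both untreated ones. Around the start of Top3b a peak was called in 12 libraries, with none in the treated WT and treated deletion rescue libraries. Top2a had a KLF4 peak around its start in 4 libraries only, the treated knockout pair (4.54 and 4.56) and the untreated full-length rescue pair (5.15 and 6.54). Its peak region (chr11:99023665-99024310) covers part of the printed promoter. The KLF4 lists hold no knockdown cells. In knockout cells KLF4 was measured without etoposide and at 3 h of 10 uM. Their RNA was measured at 0 h and at 3 h (1 library at 1 uM and 1 at 10 uM). Top2a had a KLF4 site in these cells only with etoposide. With only peaks of −log10 q of 5 or more counted, Top2a had no KLF4 site in any group. The RNA of none of the 7 genes passed at 3 h against 0 h by limma, where 0.45% of all genes did. The doses differ, and no test was made across the assays.

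**Figure D5:**
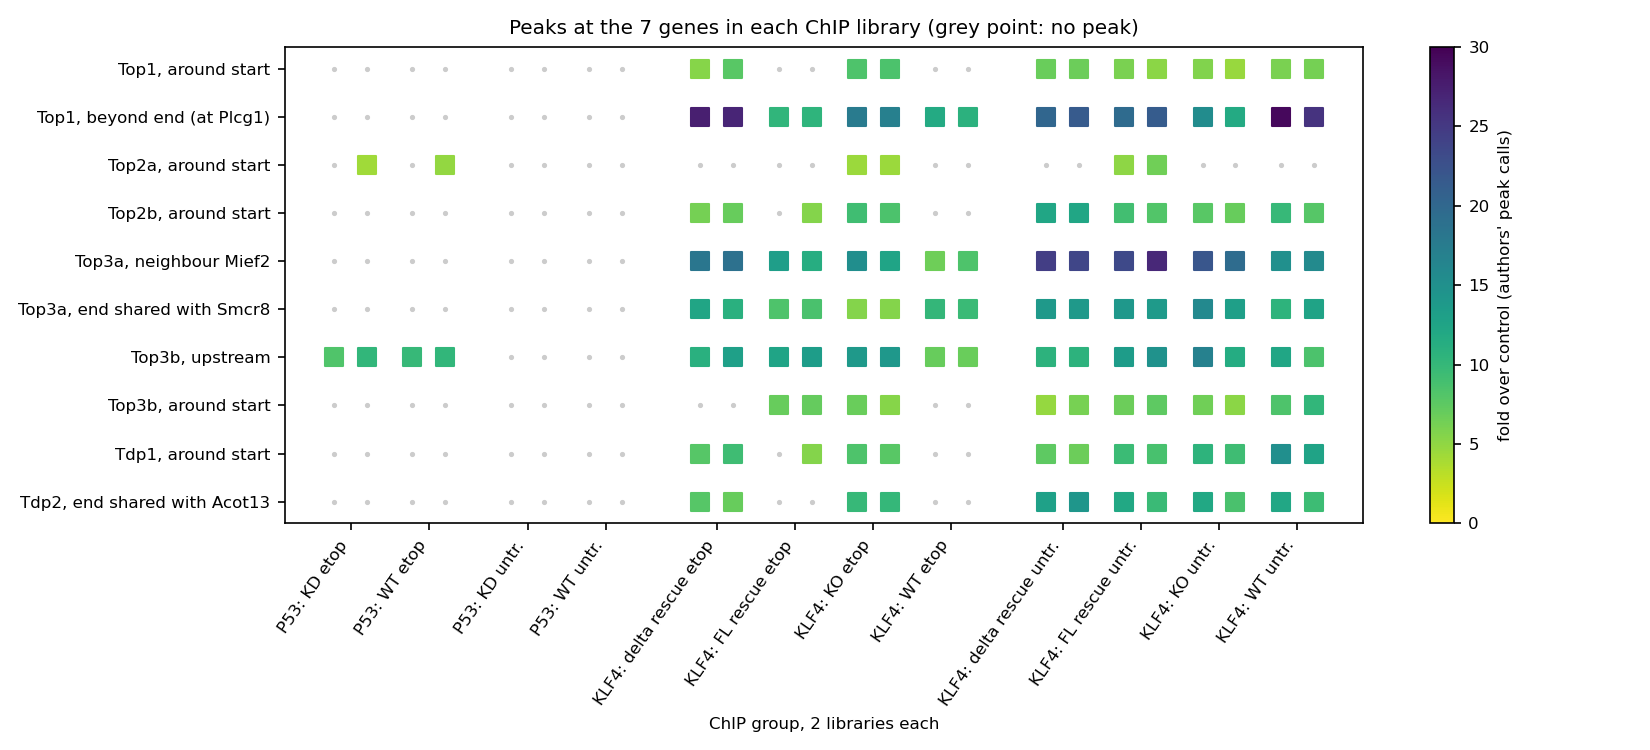
Deposited fold enrichment of the P53 and KLF4 peaks at the main loci of the 7 genes, by library. Squares are coloured by the highest fold of the library at the locus, with a grey point where no peak was called. Around the starts of Top1, Top2b and Tdp1 both treated WT libraries of KLF4 hold no peak, and at the stretch before Top3b all 4 treated P53 libraries hold a peak.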

How the data were processed

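RNA-seq (36 libraries) and ChIP-seq (24 libraries) of mouse ES cells were grouped by the sample titles. The deposited expression tables hold FPKM values made by the authors, who, per the submitters' processing notes, aligned reads with TopHat2 2.0.8 and quantified them with Cufflinks and Cuffdiff 2.1.1 on mm10. ChIP reads were aligned with Bowtie2 2.1.0 and peaks called with MACS2 2.2.7.1, per the same notes. The deposited peak lists give each peak's fold enrichment as a ratio and its −log10 p and −log10 q, per library. Neither library scaling nor the gene annotation nor the peak cutoff is given in the sources used here. Time-course columns named as WT at 0 h and 3 h (4) match no labelled sample and stayed out. The columns of the combined-loss cells were matched by elimination of the other names. Most time-course labels say 1 uM, and 4 libraries say 10 uM.

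The test was limma (version 3.58.1, under R 4.3.3) on log2(FPKM + 1), fitted once per set over its groups, with a variance trend. Genes with 1 FPKM or more in at least 2 libraries were tested (12733 and 14223), with Benjamini-Hochberg adjustment over all of them in each of 22 comparisons. Symbols on several differing lines (140) were left out. The fit was tested on simulated data. Sites were assigned to genes by the RefSeq annotation of the same build. All 7 members are named in every comparison, with up to 3 genes of smallest p per list and the 3 genes of most similar pattern per member. The members, lists and comparisons were chosen with earlier results of these data known. Alternatives were leaving out each library, no filter, a pseudocount of 0.1, quantile scaling, a replicate block, leaving out the 10 uM libraries, and other site rules. Figures used matplotlib 3.10.9 in Python 3.11.15.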

Additional observations from a re-analysis of the deposited data

Results flagged for a closer look

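The responses to etoposide that differed between cell lines by the interaction test are collected here, each as a log2 difference of responses from limma with Benjamini-Hochberg adjustment. In the first set, Lnc956 knockdown minus WT, they were 0.48 for Top2a, 0.37 for Top1 and -0.20 for Top3b. At 9 h, combined-loss minus Lnc956 knockout, they were -2.57 for Top2b, -1.51 for Top1 and -1.02 for Tdp2. At 9 h, combined-loss minus P53 knockdown, they were 0.84 for Top1 and -0.51 for Top3b. The 3 differences from the knockout cells rest on that line's 0 h libraries, whose Y-linked sum (0.140 to 0.282 FPKM) lay below that of its 6 and 9 h libraries (2.17 to 3.41 FPKM). With 6 h in place of 0 h these 3 and both differences from P53 knockdown cells no longer passed. The differences of Top1 and Top3b from P53 knockdown cells were also each lost without any 1 of 4 libraries (limma adjusted p between 0.0551 and 0.116 for Top1 and between 0.0518 and 0.0566 for Top3b), and that of Top3b in the first set without any 1 of 7 (limma adjusted p between 0.0749 and 0.133).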

How the results depend on the processing

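Of 154 differences of the 7 genes, 60 passed and 94 did not. No filter kept 51 of the 60 calls, a pseudocount of 0.1 FPKM 59, quantile scaling 54 and the replicate block 58, and none of these reversed a called sign. With 1 library left out 22 of the 60 were lost at least once, and 36 of the 94 uncalled differences changed sign somewhere.

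Counts of called genes ranged, without single libraries, from 6 to 7 (treated against untreated WT, 7 in full), 5 to 5 (knockdown, 5), 0 to 2 (untreated knockdown against WT, 2), 3 to 4 (treated, 4), 2 to 3 (interaction, 3), 3 to 4 (knockout 9 h against 0 h, 5), 4 to 5 (P53 knockdown, 5), 1 to 2 and 0 to 1 (knockout against WT at 6 and 9 h, 3 and 2), 1 to 2 and 1 to 3 (P53 knockdown against WT, 3 and 3), 1 to 2 and 3 to 3 (combined loss against P53 knockdown at 0 and 9 h, 2 and 3), 4 to 5 and 1 to 3 (against knockout, 5 and 3), and 3 to 4 and 0 to 2 (interactions with knockout and P53 knockdown, 3 and 2). P53 sites in treated cells ranged from 1 to 3 genes and KLF4 sites in treated full-length rescue cells from 3 to 5.

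No filter gave 1 gene for untreated knockdown against WT, where 1366 of 24206 genes passed, against 3032 of 12733 in the main fit. It gave 1 and 0 for knockout against WT at 6 and 9 h, and 1 for the interaction with P53 knockdown. For the other counts in this section the share of all genes that passed is not given here. Without the 10 uM libraries knockout against WT gave 1 at 6 h and 0 at 9 h, and P53 knockdown against WT 1 at 6 h. Quantile scaling gave 1 for knockout against WT at 9 h, namely Top3b (limma adjusted p = 0.0331) in place of Top1 (0.0897) and Top2a (0.0614), and 5 for the interaction with knockout, with Tdp1 and Top3a added. The replicate block gave 1, and leaving out the 0 and 3 h libraries of both lines 0, for knockout against WT at 9 h. Within 1 kb none of the 7 genes had a P53 site (0 in both treated groups) and 1 had a KLF4 site in treated WT cells. With only peaks of −log10 q of 5 or more counted, 6 rather than 7 had a KLF4 site in treated knockout and untreated full-length rescue cells. The share of all genes with a site under these rules is not given here. With 6 h in place of 0 h, added after the data were seen, the counts were 2 (knockout), 0 (P53 knockdown), 1 and 0 (interactions), and 6 values reversed: knockout Top1 -0.42, Top2b -0.25 and Top3a 0.42, P53 knockdown Top2a 0.018, and the interaction with knockout Top1 0.29 and Top2b 0.17. Apart from libraries left out by construction the cause was not tested.

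Quantile scaling moved the median of all genes by -0.29 in knockout and -0.21 in P53 knockdown cells at 9 h against 0 h. Replicate numbers are shared between groups, but the labels do not say what they mark, and same-numbered deviations correlated between -0.297 and 0.514. The block ended the calls of Top3b in the first interaction (limma adjusted p = 0.0571) and of Top2a in knockout against WT at 9 h (limma adjusted p = 0.0506). Without counts the depth sets no limit that could be computed.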
